A study of Homo sapiens with 12 samples.

Results

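YAP1, WWTR1 (which encodes TAZ), TEAD1 and TEAD4 were examined together with CTGF, CYR61, ANKRD1, AMOTL2, LATS2 and AJUBA, which are 10 of the 23621 genes measured. They were taken by name from the Hippo pathway, as its coactivators, its DNA-binding factors, its target genes and its inhibitors. RNA-seq was carried out on 12 libraries from KURAMOCHI (Ku) and COV362 (Cov) cells, both established human ovarian cancer cell lines. Cells were exposed for 6 hr to DMSO, the vehicle, or to THZ1 at 50 nM or 250 nM, with 2 biological replicates of each condition in each line. All 12 cultures carried the label untransduced for genotype and were grown with 10% fetal bovine serum in RPMI (Ku) or DMEM (Cov), so each line differed from the other in its medium as well as in its cells. THZ1 binds irreversibly to CDK7, one of the kinases of RNA polymerase II, and has CDK12 and CDK13 as further targets. Levels are FPKM, fragments counted per length of transcript and per number of mapped reads, which the authors had scaled to ERCC spike-in RNAs, synthetic transcripts mixed into RNA from a fixed number of cells.

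In the Hippo pathway, a kinase cascade ending in LATS1 and LATS2 phosphorylates YAP and TAZ and keeps them in the cytoplasm. Unphosphorylated YAP and TAZ enter the nucleus, where they bind TEAD factors on DNA and activate genes for growth, adhesion and matrix. Some of these genes, among them AMOTL2 and LATS2, encode inhibitors of YAP and TAZ, while AJUBA, a LIM-domain protein, holds back the LATS kinases. Amplification or nuclear accumulation of YAP is known from several epithelial cancers, ovarian carcinoma among them.

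Of 7 markers of serous ovarian carcinoma, 6 were above 1 FPKM in both DMSO libraries of each line. PAX8, a lineage factor of the fallopian and ovarian epithelium, was at 140.0 and 132 FPKM in Ku cells and at 120.3 and 128 FPKM in Cov cells. MUC16 was under 1 FPKM in Ku cells, as was WT1 in Cov cells. Summed over their lists, markers of leukocytes reached 5.10 FPKM at most, those of endothelium 11.8 FPKM and those of fibroblasts 48.5 FPKM. Above 1 FPKM in both DMSO libraries were 2 of 6 fibroblast markers in each line, 1 of 5 leukocyte markers in each line, and 2 of 3 endothelial markers in Ku cells against 1 in Cov cells. The highest of these were COL1A2 at 44.1 FPKM in Cov cells, COL3A1 at 9.43 FPKM and CDH5 at 8.67 FPKM in Ku cells, and CD68 at 4.53 FPKM in Cov cells, and DCN, LUM, PTPRC and PECAM1 were under 1 FPKM. Their part in the results was not tested. Across the 14251 active genes, those above 1 FPKM in at least 1 of the 12 libraries, replicates correlated with Pearson's r of 0.968 to 0.983. Read counts are not part of the tables, so the depth of the libraries is unknown.

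Promoter sequences are shown for the target genes and inhibitors that fell furthest and have a TEAD element in the window, with YAP1 beside them for comparison. The TEAD element was searched as GGAATG on either strand, in RefSeq promoters that run from 250 bases before to 50 bases after a start site (GRCh38.p14). Of the 10 genes, 7 had such a promoter (none was found for CYR61, TEAD1 or TEAD4), and 6 of these 7 held the element at least once. Counted by promoter, 6 of the 10 promoters of the 7 genes held it, beside 14.03% of 35116 promoters of this length. Capitals mark GGAATG, or CATTCC where the element lies on the other strand, in the 250 bases before the start. The sequences are those of CTGF (chr6:131951373-131951622, minus strand), ANKRD1 (chr10:90921088-90921337, minus), AMOTL2 (chr3:134374448-134374697, minus), AJUBA (chr14:22976843-22977092, minus) and YAP1 (chr11:102110197-102110446, plus), each read toward its own gene.
CTGF: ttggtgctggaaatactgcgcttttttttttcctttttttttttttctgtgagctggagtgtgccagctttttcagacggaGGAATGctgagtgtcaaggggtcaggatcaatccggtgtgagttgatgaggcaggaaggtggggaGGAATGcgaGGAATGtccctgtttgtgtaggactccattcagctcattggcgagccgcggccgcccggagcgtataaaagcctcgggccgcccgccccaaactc
ANKRD1: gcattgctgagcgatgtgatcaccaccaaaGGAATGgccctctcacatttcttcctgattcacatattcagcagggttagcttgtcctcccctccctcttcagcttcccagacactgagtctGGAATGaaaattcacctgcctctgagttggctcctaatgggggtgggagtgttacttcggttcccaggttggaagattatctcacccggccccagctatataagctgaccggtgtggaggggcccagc
AMOTL2: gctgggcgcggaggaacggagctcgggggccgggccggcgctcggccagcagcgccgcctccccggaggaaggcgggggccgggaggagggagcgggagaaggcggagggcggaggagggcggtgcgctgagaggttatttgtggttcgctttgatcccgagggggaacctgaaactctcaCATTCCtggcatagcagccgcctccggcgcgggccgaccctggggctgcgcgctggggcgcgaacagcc
AJUBA: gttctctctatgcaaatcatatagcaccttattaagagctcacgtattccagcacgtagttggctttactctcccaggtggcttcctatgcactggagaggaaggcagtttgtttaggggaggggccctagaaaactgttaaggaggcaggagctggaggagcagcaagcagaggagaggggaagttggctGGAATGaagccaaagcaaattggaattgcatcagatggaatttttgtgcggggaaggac
YAP1: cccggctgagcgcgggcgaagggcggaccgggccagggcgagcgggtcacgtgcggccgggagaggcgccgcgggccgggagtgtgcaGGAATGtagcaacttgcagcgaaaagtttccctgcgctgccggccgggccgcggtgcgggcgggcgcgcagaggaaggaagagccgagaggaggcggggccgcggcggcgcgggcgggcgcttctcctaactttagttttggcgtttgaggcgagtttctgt

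CTGF held 3 copies, beginning 169, 104 and 95 bases before the start, a number that 0.1281% of all promoters reached. ANKRD1 held 2 copies, at 220 and 128 bases before the start, and 2 or more were found in 1.373% of promoters. The single copies of YAP1, AJUBA and AMOTL2 began 162, 59 and 69 bases before the start, the last on the opposite strand. AMOTL2 and AJUBA each have another RefSeq promoter, without the element, and the copy in LATS2 began 9 bases after the start. Both WWTR1 promoters were without it. A match gives only where these letters stand, and binding was not measured in these libraries. TGANTCA, a looser pattern than the AP-1 element because any middle base is accepted, is independent of GGAATG in its letters. It was found in ANKRD1 alone of the 7 genes and in 7.709% of all promoters. The ANKRD1 match reads TGATTCA, with T in the middle, where the AP-1 element has C or G.

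All 10 genes were active in both lines, and 9 of the 10 in Ku cells and all 10 in Cov cells fell stepwise, with each DMSO library above each 50 nM library and each 50 nM library above each 250 nM library. The same order was met by 66.7% of all active genes in Ku cells and by 73.8% in Cov cells, so a stepwise fall by itself was common. LATS2 in Ku cells was the exception, because its 50 nM and DMSO libraries overlapped. Every level here is on the spike-in scale, and a gene is said to be called where limma gave an adjusted p under 0.001 and a log2 change beyond 0.5. When each library was scaled instead to the same median, the median log2 change of all genes at 250 nM moved from -1.11 to 0.29 in Ku cells and from -1.31 to 0.31 in Cov cells. The order was then kept by 4 of the 10 genes in each line, against 9.27% of active genes in Ku cells and 10.2% in Cov cells. Each library averages a whole culture, so fewer cells with a transcript and less of it per cell cannot be told apart.

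**Figure D1:**
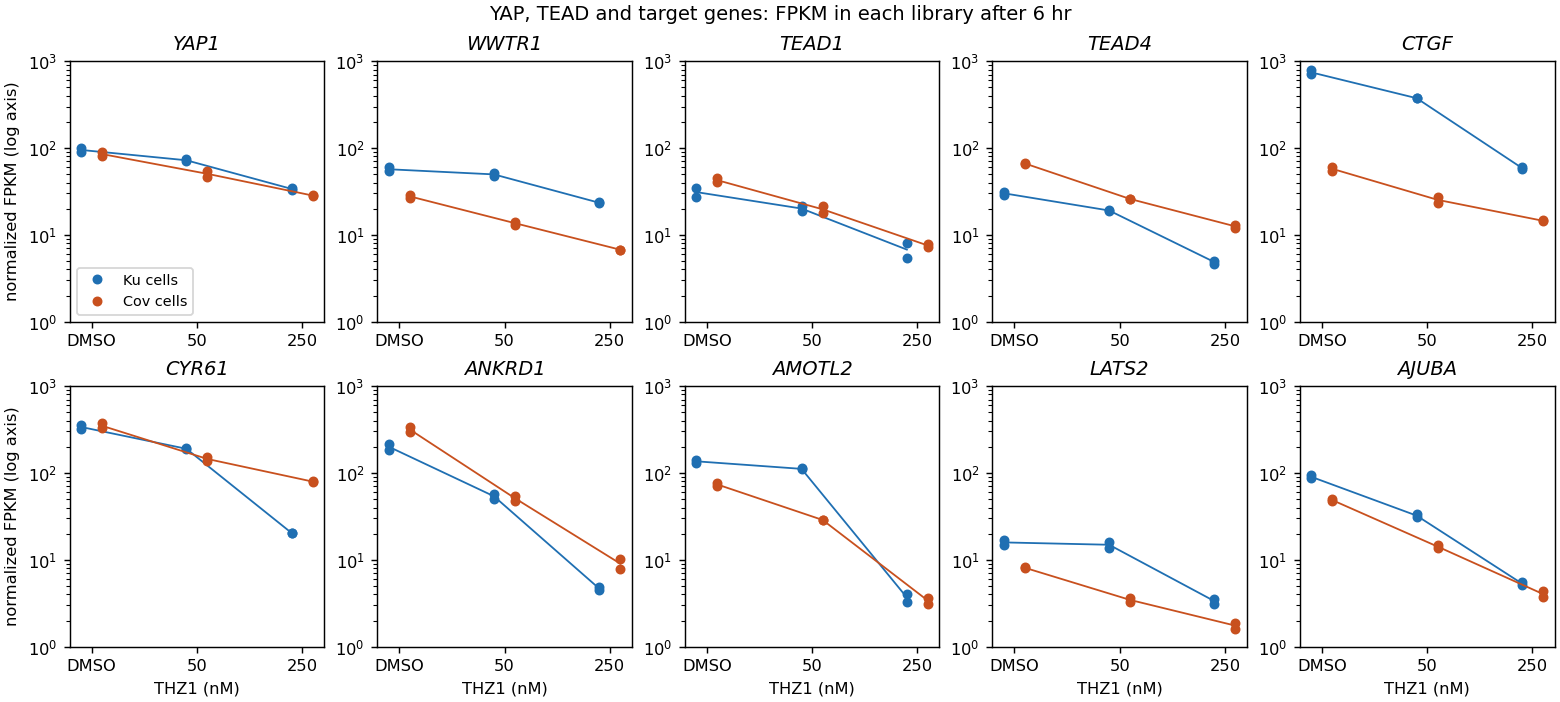
Normalized FPKM (log axis) of each gene in every library, for Ku cells (blue) and Cov cells (orange) in DMSO and at 50 nM and 250 nM THZ1; points are libraries and lines join the means of 2. On the spike-in scale both 250 nM libraries lie below both DMSO libraries for every gene and line. With equal medians WWTR1 in Ku cells is called higher at 250 nM (0.68). YAP1 in both lines is then above 0 and passes the limit on adjusted p but not that on the size of the change, so it is not called. WWTR1 and CTGF in Cov cells have values above 0 that are not called.

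YAP1 and WWTR1, the coactivators, fell least of the 10 genes at 250 nM in Ku cells on the spike-in scale. When libraries were given equal medians, both had values above 0 there, of which that of WWTR1 was called. YAP1 (chr11:101981178-102104155 in hg19, plus strand) was at 101 and 89.0 FPKM in DMSO, 74.4 and 69.9 FPKM at 50 nM and 32.6 and 34.9 FPKM at 250 nM in Ku cells. Cov libraries were at 80.2 and 89.9 FPKM in DMSO, 46.2 and 54.5 FPKM at 50 nM and 28.3 and 28.4 FPKM at 250 nM. The level left at 250 nM was thus 35.6% of DMSO in Ku cells versus 33.3% in Cov cells, and the groups did not overlap in either line. The log2 change of YAP1 at 250 nM was -1.46 ± 0.08 (SE) in Ku cells and -1.55 ± 0.11 in Cov cells (limma, Benjamini-Hochberg adjusted p = 1.88e-05 and 5.77e-06). With equal medians it was 0.49 and 0.48 (limma, adjusted p = 8.12e-04 and 5.53e-04), which missed a call only by the limit of 0.5 on size. On the spike-in scale, 4845 of the 14251 active genes in Ku cells and 5324 in Cov cells fell further than YAP1.

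WWTR1 (chr3:149235022-149454501, minus strand) was at 59.98 and 53.8 FPKM in DMSO, 51.5 and 47.8 FPKM at 50 nM and 23.7 and 23.1 FPKM at 250 nM in Ku cells. Cov cells had 26.5 and 28.9 FPKM in DMSO, 13.0 and 14.2 FPKM at 50 nM and 6.75 and 6.74 FPKM at 250 nM. TAZ transcript left at 250 nM was therefore 41.1% of DMSO in Ku cells and 24.3% in Cov cells. WWTR1 changed by -1.25 ± 0.08 in Ku cells and by -1.89 ± 0.09 in Cov cells on the log2 scale (limma, adjusted p = 2.71e-05 and 1.57e-06), but by 0.68 and 0.03 with equal medians, where it was called higher in Ku cells. Relative to YAP1 in the same library, WWTR1 moved from 0.595 and 0.605 to 0.727 and 0.660 in Ku cells and from 0.331 and 0.322 to 0.239 and 0.237 in Cov cells, opposite directions in Ku and Cov cells, and this ratio does not depend on the scaling of the libraries.

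TEAD1 and TEAD4, factors that carry YAP and TAZ on DNA, stood at a lower share of DMSO than YAP1 at 250 nM in each line, also relative to YAP1 in the same library, a difference that was not tested. TEAD1 (chr11:12695968-12966284, plus strand) was at 34.5 and 27.6 FPKM in DMSO, 21.5 and 18.6 FPKM at 50 nM and 5.43 and 8.11 FPKM at 250 nM in Ku cells. Its levels in Cov cells were 40.5 and 44.7 FPKM, 17.9 and 21.5 FPKM, and 7.84 and 7.24 FPKM in the same order. TEAD1 therefore stood at 21.8% and 17.7% of DMSO at 250 nM. TEAD4 (chr12:3068496-3149842, plus strand) was at 31.1 and 29.1 FPKM in DMSO, 19.0 and 19.1 FPKM at 50 nM and 4.66 and 5.06 FPKM at 250 nM in Ku cells. Its Cov libraries had 64.7 and 68.0 FPKM, 26.1 and 25.6 FPKM, and 11.9 and 13.1 FPKM. The TEAD4 level left at 250 nM was 16.2% of DMSO in Ku cells and 18.9% in Cov cells.

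Per YAP1 transcript, TEAD4 went from 0.309 and 0.326 in DMSO to 0.143 and 0.145 at 250 nM in Ku cells, and from 0.807 and 0.757 to 0.421 and 0.462 in Cov cells. The log2 changes at 250 nM were -2.06 ± 0.20 and -2.35 ± 0.11 for TEAD1 and -2.41 ± 0.09 and -2.32 ± 0.09 for TEAD4, in Ku and Cov cells respectively. All of them passed the threshold (limma, adjusted p of 1.17e-04 or less), but none did with equal medians. Without DMSO replicate 1, TEAD1 in Ku cells lost its call. The TEAD1 replicates in Ku cells lay further apart at 250 nM than those of any other of the 10 genes, as the range in the plot of levels left shows.

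CTGF and CYR61, matricellular proteins secreted by the cell and widely read as reporters of YAP activity, fell to a lower share of DMSO in Ku cells than in Cov cells at 250 nM. CTGF (now CCN2, chr6:132269316-132272512, minus strand) was at 780.5 and 702 FPKM in DMSO, 374.0 and 374.0 FPKM at 50 nM and 59.95 and 57.7 FPKM at 250 nM in Ku cells. Cov libraries were at 54.5 and 60.5 FPKM in DMSO, 23.5 and 27.1 FPKM at 50 nM and 14.3 and 14.8 FPKM at 250 nM. CTGF thus fell to 7.94% of DMSO in Ku cells and to 25.3% in Cov cells. The tables of the lines had been normalized separately, and differences between lines were not tested.

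CYR61 (now CCN1, chr1:86046444-86050272, plus strand) was at 354 and 322 FPKM in DMSO, 193 and 186 FPKM at 50 nM and 20.4 and 20.3 FPKM at 250 nM in Ku cells. Its levels in Cov cells were 325 and 372 FPKM, 138 and 151 FPKM, and 80.5 and 78.4 FPKM. The DMSO ranges of CYR61 thus overlapped between the lines, and it stood at 6.01% of DMSO in Ku cells and 22.8% in Cov cells at 250 nM. The log2 change at 250 nM was -3.99 ± 0.07 in Ku cells versus -2.12 ± 0.10 in Cov cells for CYR61, and -3.63 ± 0.07 and -1.91 ± 0.10 for CTGF (limma, adjusted p of 4.94e-06 or less). With equal medians both remained called lower in Ku cells (-2.05 and -1.66), whereas neither was called in Cov cells (-0.05 for CYR61 and 0.09 for CTGF).

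Relative to YAP1, CTGF went from 7.75 and 7.89 in DMSO to 5.02 and 5.35 at 50 nM and 1.84 and 1.65 at 250 nM in Ku cells. The ratio in Cov cells was 0.680 and 0.673 in DMSO, 0.507 and 0.497 at 50 nM and 0.506 and 0.519 at 250 nM. The Cov ratio was lower at 50 nM than in DMSO and overlapped between the doses, while the Ku ratio was lower again at 250 nM. CYR61 per YAP1 went from 3.51 and 3.62 to 0.625 and 0.580 in Ku cells, and from 4.06 and 4.14 through 2.99 and 2.78 to 2.85 and 2.76 in Cov cells, where the doses overlapped. These ratios are given as values and were not tested.

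**Figure D2:**
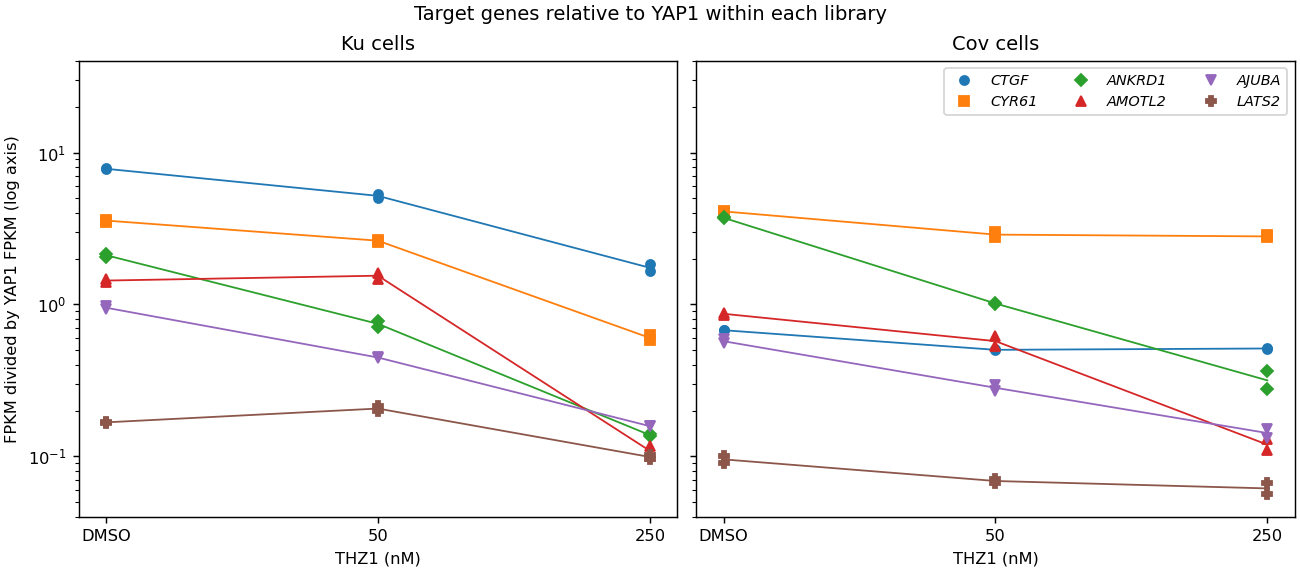
FPKM of 6 genes divided by the FPKM of YAP1 in the same library (log axis), in DMSO and at 50 nM and 250 nM THZ1; points are libraries, lines join the geometric means of 2, and scaling a library does not change its ratio. CTGF and CYR61 drop between 50 nM and 250 nM in Ku cells and stay level there in Cov cells, whereas ANKRD1 and AMOTL2 drop in both lines.

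ANKRD1, a nuclear ankyrin-repeat protein first known from heart muscle, fell furthest of the 10 genes in both lines. ANKRD1 (chr10:92671853-92680844, minus strand) was at 218 and 183 FPKM in DMSO, 57.9 and 49.8 FPKM at 50 nM and 4.46 and 4.87 FPKM at 250 nM in Ku cells. Cov libraries had 295 and 338 FPKM, 47.4 and 54.7 FPKM, and 10.3 and 7.82 FPKM. At 50 nM ANKRD1 already stood at 26.9% of DMSO in Ku cells versus 16.1% in Cov cells, and at 250 nM at 2.33% and 2.86%. The log2 change at 250 nM was -5.15 ± 0.12 in Ku cells versus -4.99 ± 0.14 in Cov cells (limma, adjusted p = 5.08e-06 and 8.16e-07). Of the active genes, 25 fell further in Ku cells and 21 in Cov cells. With equal medians ANKRD1 remained called lower, at -3.31 and -2.99.

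AMOTL2, an angiomotin-like protein that binds YAP and holds it out of the nucleus, fell mostly between the doses in Ku cells. In Ku cells AMOTL2 (chr3:134074189-134094321, minus strand) was at 141 and 131 FPKM in DMSO, 110.2 and 113 FPKM at 50 nM and 3.30 and 4.08 FPKM at 250 nM. In Cov cells it was at 70.7 and 76.7 FPKM in DMSO, 28.7 and 28.9 FPKM at 50 nM and 3.11 and 3.67 FPKM at 250 nM. The 50 nM level was 81.9% of DMSO in Ku cells versus 39.0% in Cov cells, and the 250 nM level 2.71% and 4.60%. Between 50 nM and 250 nM in Ku cells AMOTL2 changed by -4.59 ± 0.10 on the log2 scale (limma, adjusted p = 2.27e-05), and 11 of the 14251 active genes fell further. Against DMSO the change at 250 nM was -4.87 ± 0.10 in Ku cells versus -4.09 ± 0.10 in Cov cells, and with equal medians -3.07 and -2.21, called lower in both.

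LATS2, the kinase at the end of the Hippo cascade, had the lowest mean FPKM of the 10 genes in every condition of both lines, although its range met that of AMOTL2 in Ku cells at 250 nM. LATS2 (chr13:21547175-21635725, minus strand) was at 16.8 and 14.98 FPKM in DMSO, 16.01 and 13.8 FPKM at 50 nM and 3.13 and 3.56 FPKM at 250 nM in Ku cells. The Cov libraries had 8.03 and 8.17 FPKM, 3.29 and 3.62 FPKM, and 1.89 and 1.60 FPKM. At 50 nM LATS2 stood at 93.99% of DMSO in Ku cells, where the groups overlapped, and at 42.7% in Cov cells, where they did not. At 250 nM the level left was 21.1% in Ku cells versus 21.6% in Cov cells. Its log2 change at 250 nM was -1.96 ± 0.13 in Ku cells versus -1.73 ± 0.10 in Cov cells (limma, adjusted p = 2.71e-05 and 3.20e-06), and with equal medians -0.23 and -0.11, not called.

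AJUBA (chr14:23440386-23451760, minus strand) was at 93.8 and 86.5 FPKM in DMSO, 33.5 and 31.1 FPKM at 50 nM and 5.17 and 5.50 FPKM at 250 nM in Ku cells. Cov cells had 47.3 and 49.9 FPKM in DMSO, 13.6 and 14.8 FPKM at 50 nM and 3.75 and 4.33 FPKM at 250 nM. The share of DMSO left was 35.8% for AJUBA at 50 nM, then 5.92% at 250 nM, in Ku cells, and 29.2% and 8.31% in Cov cells. The log2 change at 250 nM was -3.85 ± 0.08 in Ku cells versus -3.30 ± 0.10 in Cov cells (limma, adjusted p = 5.08e-06 and 8.16e-07), and with equal medians -2.003 and -1.41, called lower in both.

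At 50 nM, 4 of the 10 genes were called lower in Ku cells, namely CTGF, CYR61, ANKRD1 and AJUBA, against 11.3% of all active genes. Among genes above 10 FPKM in at least 1 library, a limit that all 10 genes passed, the share was 15.5%. The log2 change was -1.88 ± 0.12 for ANKRD1 and -1.45 ± 0.08 for AJUBA (limma, adjusted p = 2.81e-04 and 2.50e-04). It was -0.98 ± 0.07 for CTGF and -0.83 ± 0.07 for CYR61 (limma, adjusted p = 3.43e-04 and 4.24e-04). Of the genes not called, TEAD4 had a change of -0.63 ± 0.09, TEAD1 -0.60 ± 0.20, YAP1 -0.39 ± 0.08, AMOTL2 -0.28 ± 0.10, WWTR1 -0.19 ± 0.08 and LATS2 -0.09 ± 0.13. Without any 1 of the 6 Ku libraries, 0 of the 10 genes were called (limma, adjusted p under 0.001), and 0.0421% to 0.919% of active genes were. The log2 changes then ran from -1.998 to -1.75 for ANKRD1 and from -1.51 to -1.40 for AJUBA. With equal medians ANKRD1 alone was called lower at 50 nM in Ku cells, against 0.737% of active genes, and YAP1, WWTR1, TEAD1, TEAD4, AMOTL2 and LATS2 had values above 0 that were not called. The median of all active genes was then 0.10, and TEAD1 (0.0778) and TEAD4 (0.0467) lay below it.

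In Cov cells all 10 genes were called lower at 50 nM, against 70.5% of all active genes and 80.3% of those above 10 FPKM in at least 1 library. A call at this dose was thus common in this line. The log2 changes ran from -2.61 ± 0.14 for ANKRD1 to -0.75 ± 0.11 for YAP1 (limma, adjusted p = 2.16e-05 and 3.87e-04), around a median of -1.21 for the 10 genes and -0.85 for all active genes. With equal medians 0 of the 10 were called (limma, adjusted p under 0.001), against 0.147% of active genes called lower. YAP1, WWTR1, TEAD1 and CTGF then had values above 0 that were not called, and ANKRD1 a value of -1.39 that was not called either. The median of all active genes was 0.12 on this scale, above the values of TEAD1 (0.10) and CTGF (0.036). Without DMSO replicate 2, YAP1, WWTR1, TEAD1 and LATS2 lost their calls. YAP1 lost its call also without DMSO replicate 1 and without replicate 1 of 50 nM. Its log2 change ran from -0.86 to -0.63 with 1 library left out.

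At 250 nM all 10 genes were called lower in each line, against 68.6% of active genes in Ku cells and 84% in Cov cells. Among the 9384 genes above 10 FPKM in at least 1 library the shares called were 82.5% and 94%, so a call was common at such levels. The median log2 change was -3.02 for the 10 genes and -1.11 for all active genes in Ku cells, and -2.22 and -1.31 in Cov cells. All 10 lay below the median of active genes in both lines on this scale. With equal medians 8 did so in Ku cells and 9 in Cov cells, with median-of-ratios scaling 9 in each line, and with a pseudocount of 0.1 in place of 1 they numbered 9 in Ku cells. In Ku cells ANKRD1, AMOTL2, CYR61, AJUBA and CTGF were each among the genes that fell furthest, with 25, 32, 102, 129 and 180 of 14251 active genes falling further. In Cov cells this was so for ANKRD1, AMOTL2 and AJUBA, with 21, 50 and 227 genes falling further, whereas 2438 fell further than CYR61 and 3312 further than CTGF. With equal medians 5 genes remained called lower in Ku cells (ANKRD1, AMOTL2, CYR61, AJUBA and CTGF) and 3 in Cov cells (ANKRD1, AMOTL2 and AJUBA), against 11.6% and 11.3% of active genes. The 250 nM and 50 nM comparisons share the DMSO libraries of their line.

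**Figure D3:**
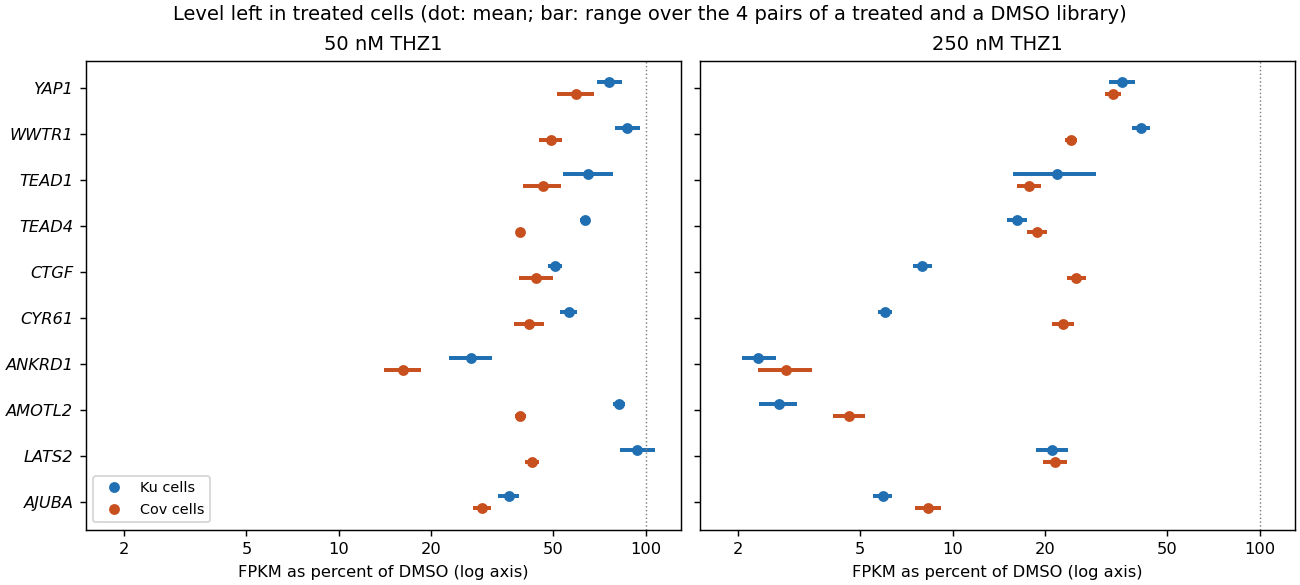
FPKM left at 50 nM and 250 nM THZ1 as percent of DMSO (log axis) for each gene; dots are means in Ku (blue) and Cov (orange) cells, and bars span the 4 ratios of a THZ1 library to a DMSO library. At 50 nM the Ku bars lie to the right of the Cov bars for 9 genes and overlap for CTGF. At 250 nM Cov lies to the right for 5 genes, CTGF and CYR61 by the widest margin. Under equal medians CTGF, YAP1, TEAD1, CYR61 and AJUBA have the lower value in Ku cells at 50 nM. The log2 changes of YAP1 and WWTR1 are then above 0 at both doses in both lines, and of these only that of WWTR1 in Ku cells at 250 nM was called.

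Between 50 nM and 250 nM, Ku cells had all 10 genes called lower and Cov cells had 9, against 36% and 24.4% of active genes. Among genes above 10 FPKM in at least 1 library the shares were 54.5% and 36.2%. LATS2 in Cov cells was the gene not called, with a log2 change of -0.70 ± 0.10 (limma, adjusted p = 0.00114). It was called with a pseudocount of 0.1, a minimum of 10 FPKM or eBayes without the trend (limma, adjusted p of 7.83e-04 or less). TEAD1 in Ku cells lost its call without the trend, without a minimum FPKM and in a fit of the 2 groups alone (limma, adjusted p = 0.00184, 0.00306 and 0.00166). Its log2 change ran from -1.71 to -1.21 with 1 library left out. The median step was -2.13 for the 10 genes and -0.62 for all active genes in Ku cells, and -0.95 and -0.41 in Cov cells. AMOTL2 took the largest step of the 10 in each line, -4.59 ± 0.10 in Ku cells and -2.76 ± 0.10 in Cov cells (limma, adjusted p = 2.27e-05 and 3.38e-05). ANKRD1, AMOTL2 and AJUBA remained called in both lines with equal medians, and CTGF, CYR61 and LATS2 in Ku cells as well, against 6.55% (Ku) and 4.95% (Cov) of active genes called lower. The Ku count was 6 without replicate 1 of 50 nM or of 250 nM, where 5.89% and 5.55% of active genes were called. The Cov count was 5 without either 250 nM library (11.9% and 10.7% of active genes) and 6 without replicate 2 of 50 nM (18.7%).

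In the genes called lower at 250 nM, the share of the log2 fall that was already reached at 50 nM had a median of 37.5% in Ku cells (quartiles 21.1% and 56.5%) and 65.4% in Cov cells (52.7% and 78.7%). In Ku cells 5.84% of the log2 fall of AMOTL2 was reached at 50 nM, as against 37.8% for AJUBA and 36.4% for ANKRD1. For LATS2 the share was 4.37%, but its log2 change at 50 nM ran from -0.18 to 0.0138 when 1 library was left out, so neither its size nor its sign was settled. In Cov cells the share reached at 50 nM ran from 32.4% for AMOTL2 to 60.5% for CTGF. These shares hold on the spike-in scale only, since with equal medians AMOTL2 and LATS2 in Ku cells and CTGF in Cov cells had values above 0 at 50 nM. The share of DMSO left at 50 nM was higher in Ku cells for 9 of the 10 genes, with ranges that did not overlap, and CTGF was the exception. The same was so for 60.8% of all active genes. This order depended on the scaling. With equal medians the log2 change at 50 nM was lower in Ku cells than in Cov cells for CTGF (-0.28 against 0.036), YAP1 (0.31 against 0.46), TEAD1 (0.0778 against 0.10), CYR61 (-0.13 against -0.0411) and AJUBA (-0.75 against -0.52). At 250 nM the share of DMSO left was higher in Cov cells for 5 genes (TEAD4, CTGF, CYR61, AMOTL2 and AJUBA) and in Ku cells for WWTR1, and the ranges of the other 4 genes overlapped. Among all active genes the share left at 250 nM was higher in Cov cells for 19% and in Ku cells for 34.3%. These comparisons between lines rest on tables normalized separately and were not tested.

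Per length, the order of the 10 genes changed with dose. CTGF led in all 3 conditions of Ku cells, followed in DMSO by CYR61 at 338 FPKM, ANKRD1 at 200.5 FPKM and AMOTL2 at 136 FPKM, each apart from the next beyond its replicates. YAP1 and AJUBA overlapped there, as did TEAD1 and TEAD4. At 250 nM YAP1 was second in Ku cells, with 33.8 FPKM, and AMOTL2 had dropped to rank 9 at 3.69 FPKM. In Cov cells CYR61 and ANKRD1 overlapped at the head of the order in DMSO, at 349 and 316 FPKM, while CTGF, at 57.5 FPKM, was below YAP1 at 85.0 FPKM. At 250 nM CYR61 led in Cov cells with 79.5 FPKM, and YAP1 followed with 28.3 FPKM.

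A list of 20 upstream genes of the Hippo cascade, 6 further TEAD factors and TEAD cofactors, and 16 further target genes of YAP and TAZ were read in the same fits. Of the 20 kinases, scaffolds and regulators, all active, 18 were called lower at 250 nM in Ku cells versus 20 in Cov cells, with medians of -1.65 and -1.75, beside 68.6% and 84% of all active genes called. Of the Ku genes not called, TAOK3 was under 1 FPKM in every Ku library and active through Cov cells alone. Among genes above 1 FPKM in at least 1 Ku library, a limit added after the values were seen, 18 of 19 were called in Ku cells, against 74.9% of 12948 genes. SAV1, the scaffold of the MST kinases, fell to 10.5% and 10.9% of DMSO, and FRMD6, a membrane adaptor, to 10.9% and 4.87%. AMOTL1, a relative of AMOTL2, stood at 14.3% and 12.1%, whereas MOB1A, the activating partner of the LATS kinases, stood at 49.2% and 37.0% and WWC2 at 42.3% and 39.5%. AMOT, the third angiomotin, was not called in Ku cells (-1.06 ± 0.19, limma, adjusted p = 0.00215) and was called in Cov cells (-1.16 ± 0.10). LATS1, named here after its values were seen, had a log2 change of -1.94 ± 0.18 in Ku cells versus -2.04 ± 0.10 in Cov cells.

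TEAD2, TEAD3 and VGLL4, a repressive partner of TEADs, were active and called lower in both lines at 250 nM, and VGLL1, VGLL2 and VGLL3 were not active. TEAD2 kept 52.4% of DMSO in Ku cells and 47.9% in Cov cells, but with equal medians it was called higher in both (1.02 and 0.97). The level left was, in the same order of lines, for TEAD3 18.4% and 28.3%, and VGLL4 25.8% and 29.0%. Of the 16 further target genes, 11 were called lower in Ku cells versus 16 in Cov cells at 250 nM, with medians of -1.18 and -1.58, and the shares of active genes called were again 68.6% and 84%. DOCK5 and FOXF2, both among the 5 not called in Ku cells, were under 1 FPKM in every Ku library. Without them 11 of 14 were called there, against 74.9%, and the median was -1.47, beside -1.20 for all genes above 1 FPKM in a Ku library. FJX1, a secreted growth regulator, fell to 3.37% and 8.21% of DMSO, and NUAK2, a kinase of the AMPK family, to 2.83% and 7.68%. NUAK2 stood at 88.6% of DMSO at 50 nM in Ku cells and so, like AMOTL2, fell mostly between the doses. F3, the coagulation factor that starts clotting, stood at 24.1% and 8.76%, while NT5E (CD73) and MYOF, a membrane repair protein, were not called in Ku cells, with 54.95% and 58.7% left. CCDC80, a matrix protein, kept 44.7% in Ku cells versus 44.6% in Cov cells, and RBMS3, an RNA-binding protein, 64.0% (not called) and 41.0%. At 50 nM, 3 of these 39 active genes were called in Ku cells (0 without any 1 of the 6 Ku libraries) and 34 in Cov cells (15 without DMSO replicate 2), against 11.3% and 70.5% of all active genes. With equal medians 6 and 7 of the 39 were called lower at 250 nM in Ku and Cov cells, against 11.6% and 11.3% of active genes, while 12 and 10 were called higher, against 26.9% and 26.4%. Of the genes named here, MOB1A, WWC2, MYOF and CCDC80 were then called higher in both lines, NT5E in Ku cells, and AMOT (0.69) and RBMS3 (0.64) in Cov cells. SAV1, FRMD6, AMOTL1, FJX1 and NUAK2 were called lower in both lines, and F3 in Cov cells (-1.34).

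**Figure D4:**
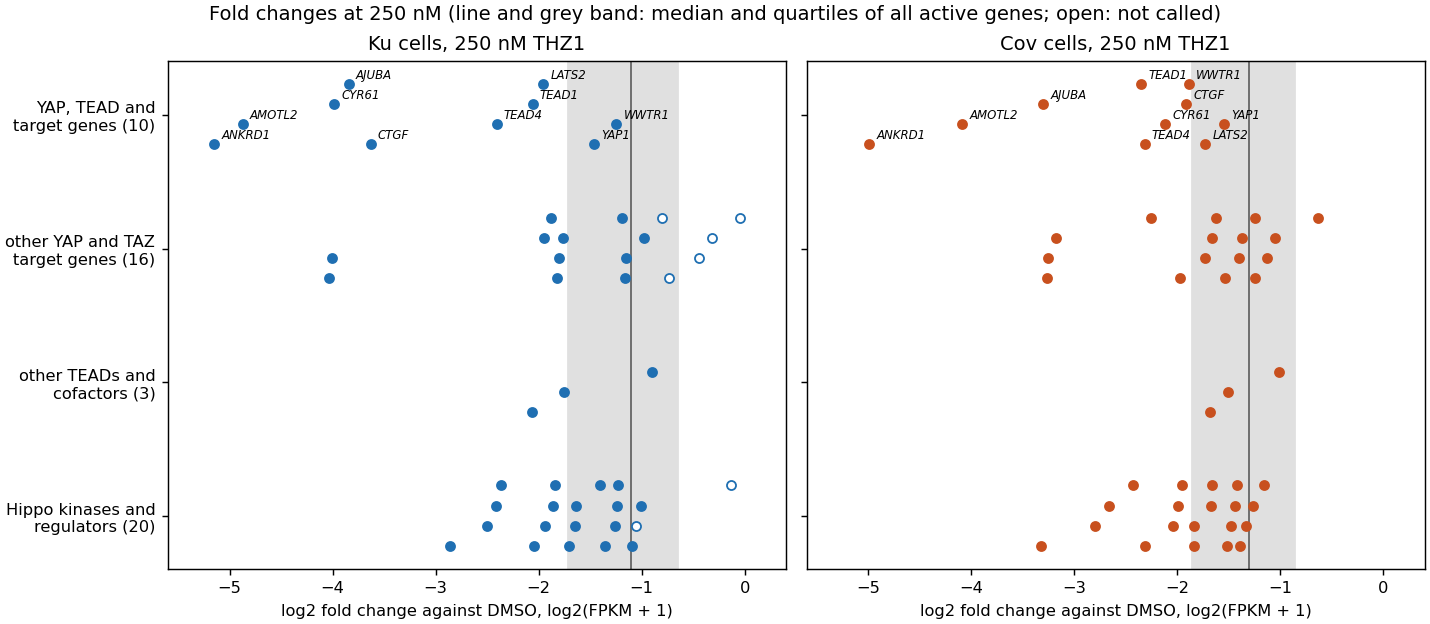
Log2 fold change at 250 nM THZ1 against DMSO, on log2(FPKM + 1), for the 10 genes and 3 further lists of the Hippo pathway; filled points were called, open points were not, the line is the median of all active genes and the grey band their quartiles. ANKRD1, AMOTL2 and AJUBA lie far to the left in both lines and CYR61 and CTGF in Ku cells alone, while YAP1 and WWTR1 sit near the grey band and are above 0 with equal medians, called there for WWTR1 in Ku cells alone.

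The 5 shortest genes fell further than the 5 longest at 250 nM in Ku cells. CTGF, CYR61, ANKRD1, AJUBA and AMOTL2 span 3.2, 3.8, 9.0, 11.4 and 20.1 kb in hg19, and changed by -5.15 to -3.63 on the log2 scale. TEAD4, LATS2, YAP1, WWTR1 and TEAD1 span 81.3, 88.6, 123.0, 219.5 and 270.3 kb, and changed by -2.41 to -1.25. In Cov cells the short genes changed by -4.99 to -1.91 and the long ones by -2.35 to -1.55, which overlap. Among all active genes the median was -1.11 for transcripts under 25 kb and -1.08 for those over 80 kb in Ku cells, and -1.22 and -1.36 in Cov cells. These limits were chosen after the values were seen, and the 5 short genes are targets or inhibitors, as is LATS2 among the long ones, with -1.96 in Ku cells and -1.73 in Cov cells. Genes on the opposite strand overlap YAP1, WWTR1, TEAD1, CTGF and LATS2, and whether strand was used in quantification is not given in the sources used here. The antisense gene WWTR1-AS1 was at 0.112 to 0.373 FPKM across the 12 libraries. SCARNA16, which overlaps TEAD1, ran from 0.112 FPKM in a Ku library at 50 nM to 13.5 FPKM in a Cov library at 250 nM. Any part of it in the TEAD1 values was not tested.

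Likeness between genes was measured as the root mean square difference in log2(FPKM + 1), each relative to the DMSO mean of its line, over all 12 libraries. The closest pairs of the 10 genes were CTGF with CYR61 (0.187), YAP1 with WWTR1 (0.209) and TEAD1 with TEAD4 (0.217), and the most distant was YAP1 with ANKRD1 (2.28). Among all active genes, CTGF was the second nearest to CYR61, after NFKBIA, an inhibitor of NF-κB (0.166), and ahead of BMP4, a secreted ligand (0.224). Nearest to CTGF were CCNJL (0.138), NFKBIA (0.148) and PIM3, a kinase (0.150), against a median of 1.13 over all genes. NFKBIA stood at 5.97% of DMSO at 250 nM in Ku cells and at 25.8% in Cov cells, close to the values of CTGF and CYR61. CCNJL stood at 4.55% in Ku cells versus 11.1% in Cov cells, and BMP4 at 2.38% and 5.02%, so these genes were further from CTGF and CYR61 in percent of DMSO than on log2(FPKM + 1). Both were under 1 FPKM at 250 nM in each line, where the pseudocount compresses the change. The genes nearest to YAP1 were FAM168B (0.0486), PDS5A (0.0503) and SNX16 (0.0543), against a median of 0.449. FAM168B kept 35.4% of DMSO at 250 nM in Ku cells versus 35.2% in Cov cells, beside 35.6% and 33.3% for YAP1. PDS5A kept 32.5% and 31.5%. SNX16 kept 32.1% and 20.9%, and at a mean of 1.05 FPKM in Cov cells at 250 nM its change is compressed by the pseudocount as well.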

How the data were processed

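RNA-seq of 12 libraries was taken as the authors deposited it. The authors mixed ERCC RNAs into cell-count-normalized RNA, prepared stranded poly(A) libraries, aligned single-end reads to hg19 with HiSat, and computed FPKM with cuffquant and cuffnorm. The deposited FPKM had been normalized to the spike-ins, in 1 table of 23713 rows per cell line, 92 of them ERCC. FPKM before that scaling were not analysed here, so it was not repeated, and since these values are not counts edgeR, the tool of the study, was not applied. The median deviation of the ERCC rows from the DMSO mean of the line was -0.0058 to 0.0451 log2 units. Samples were grouped by the line and dose in their labels.

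Genes above 1 FPKM in at least 1 library were kept (14251), and log2(FPKM + 1) was fitted per line with limma 3.58.1 in R 4.3.3 (lmFit, eBayes with trend, 3 groups of 2). P-values are two-sided and Benjamini-Hochberg adjusted over all active genes. Calls required both an adjusted p under 0.001 and a log2 change beyond 0.5, limits taken from the study. The pseudocount understates the change of low genes. P-values measure the spread between 2 libraries a group.

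The 10 genes and the other lists were chosen with earlier results of these data known. From each other list the 2 genes with the lowest and the 2 with the highest change at 250 nM in each line were named, among genes with a DMSO mean of at least 5 FPKM, and the 3 nearest genes of YAP1, CTGF and CYR61. Gene spans are from GENCODE lifted to GRCh37 (the same build as hg19), and 94.4% of active genes had one. CTGF and CYR61 were matched as CCN2 and CCN1. Promoter sequences are from RefSeq (GRCh38.p14), and coordinates of the builds were not mixed. Alternatives were another pseudocount, other minimum levels, equal-median and median-of-ratios scaling, other fits and thresholds, a replicate block and each library left out. Figures were drawn with matplotlib 3.10.9.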

Additional observations from a re-analysis of the deposited data

How the results depend on the processing

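With 2 libraries a group and no counts, depth cannot be judged and small steps cannot be resolved. A fit that leaves out a library assumes that the lone library left varies like the other groups. The pseudocount of 0.1, a minimum of 10 FPKM, a minimum on condition means and eBayes without the trend kept every count of called genes within 1.5 times and every direction of the 10 genes. The cause of the changes below was not tested beyond what each setting changes by construction.

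With equal medians, the 10 genes called lower numbered 1 in Ku cells at 50 nM, 5 (and 1 called higher, WWTR1) at 250 nM and 6 between the doses, and 0, 3 and 3 in Cov cells. The other pathway genes called lower numbered 1, 6 and 3 in Ku cells and 0, 7 and 4 in Cov cells, and the stepwise order held for 4 of the 10 genes in each line. Log2 changes that reversed in Ku cells at 50 nM were 0.31 (YAP1), 0.50 (WWTR1), 0.0778 (TEAD1), 0.0467 (TEAD4), 0.41 (AMOTL2) and 0.56 (LATS2), at 250 nM 0.49 (YAP1) and 0.68 (WWTR1), and between the doses 0.18 (YAP1) and 0.19 (WWTR1). Those in Cov cells were 0.46 (YAP1), 0.18 (WWTR1), 0.10 (TEAD1) and 0.036 (CTGF) at 50 nM, 0.48 (YAP1), 0.0344 (WWTR1) and 0.0898 (CTGF) at 250 nM, and 0.0261 (YAP1) and 0.0538 (CTGF) between the doses. The median of all active genes was itself above 0 here, in Ku and Cov cells 0.10 and 0.12 at 50 nM, 0.29 and 0.31 at 250 nM, and 0.24 and 0.21 between the doses. Below it lay TEAD1 and TEAD4 (Ku) and TEAD1 and CTGF (Cov) at 50 nM, WWTR1 and CTGF (Cov) at 250 nM, and every reversed value between the doses.

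With median-of-ratios scaling the 10 genes called lower numbered 2 in Ku cells at 50 nM (2.72% of active genes), and 0 at 50 nM (0.772%), 6 at 250 nM (18.9%) and 3 between the doses (7.92%) in Cov cells. The other pathway genes numbered 9 at 250 nM and 9 between the doses in Ku cells, and 0, 10 and 6 in Cov cells, and the stepwise order held for 4 of the 10 in Ku cells. Reversed values were 0.16 (YAP1), 0.35 (WWTR1), 0.27 (AMOTL2) and 0.43 (LATS2) in Ku cells at 50 nM and 0.17 (WWTR1) at 250 nM, and in Cov cells 0.27 (YAP1) and 0.0042 (WWTR1) at 50 nM and 0.0322 (YAP1) at 250 nM. ANKRD1, AMOTL2 and AJUBA were called lower at 250 nM in both lines under both scalings.

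Without a minimum FPKM, in which more genes are tested, 0 of the 10 genes and 0 of the other genes were called in Ku cells at 50 nM, and 10 (Ku) and 15 (Cov) of the other genes between the doses. A fit of only the 2 groups compared gave 0 and 0 in Ku cells at 50 nM and 15 other genes between the doses in Cov cells. A log2 change beyond 1 left 2 of the 10 in Ku cells at 50 nM and 4 between the doses in Cov cells, with 18 other genes in Cov cells at 50 nM and 9 between the doses. An adjusted p under 0.05 gave 17 other genes in Ku cells at 50 nM. Same-numbered libraries shared only a number (correlation of their deviations between -0.0703 and 0.0282). The replicate block left 3 of the 10 and 7 of the other genes between the doses in Cov cells (7.93% of active genes) and cost TEAD1 its call between the doses in Ku cells. It changed no other call of the 10.

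Leaving out each library in turn gave 0 calls among the 10 genes and 0 among the other genes in Ku cells at 50 nM, whichever of the 6 was left out. It gave 6 to 10 of the 10 and 15 to 35 of the others in Cov cells at 50 nM, both lowest without DMSO replicate 2. Between the doses the ranges were 6 to 9 and 4 to 22 in Ku cells, both lowest without replicate 1 of 250 nM (5 others without replicate 1 of 50 nM, 6 without replicate 2 of either dose). They were 5 to 9 and 6 to 22 in Cov cells, both lowest without replicate 1 of 250 nM (others 7 without its replicate 2, 12 without either DMSO library, 13 without replicate 2 of 50 nM). LATS2 in Ku cells at 50 nM ran from -0.18 to 0.0138, above 0 without replicate 2 of 50 nM.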
